A study of Gallus gallus with 6 samples.

Results

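The genes examined here encode enzymes of the TET and ALKBH families and FTO, which use iron, oxygen and 2-oxoglutarate to oxidise methylated or otherwise modified substrates, in most cases bases of DNA or RNA. They were taken by name: 9 gene names were looked up in the deposited RNA-seq table, and 7 of them (TET2, ALKBH1, ALKBH3, ALKBH4, ALKBH5, ALKBH8 and FTO) have a row among its 17340 loci. No row carried the name TET1 or TET3, so these genes were not analysed here. The cells were primary lens cells from White leghorn chick embryos at embryonic day 10, isolated from lenses by trypsin, plated on laminin and grown in serum-containing medium. One group of 3 libraries came from cells treated with 1 mM DMOG for 4 hours, and the other group of 3 libraries came from untreated cells of the same kind. The treatment is a model of hypoxia-inducible factor activation in which oxygen itself was not lowered, and the study describes each group as biological triplicates. The values are FPKM, that is, read fragments scaled by transcript length and by library size, which allow levels of different genes to be compared per length of transcript.

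DMOG is taken up by cells and competes with 2-oxoglutarate at the active site of dioxygenases. It is best known for blocking the prolyl hydroxylases that mark HIF1α for degradation. TET, ALKBH and FTO enzymes belong to the same large family, so their activity can also be affected by such a competitor, but RNA-seq measures only their transcripts. TET2 oxidises the methyl group of 5-methylcytosine in DNA, which opens a route to its removal. ALKBH5 and FTO are the known erasers of N6-methyladenosine (m6A) in RNA, a mark that is written by a complex around METTL3 and METTL14 and read by YTH domain proteins. In human breast cancer cells, ALKBH5 is known as a gene that HIF can induce. ALKBH1 and ALKBH3 act on methylated bases in tRNA and in single-stranded nucleic acids. The shared name "nucleic acid demethylase" does not cover every member: human ALKBH4 is known for removing a methyl group from actin, and ALKBH8 modifies the wobble uridine of tRNAs.

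None of the 6 genes that could be tested changed past the limits the study used, which 7.81% of all tested loci passed, and 0 had an adjusted p under 0.05. FTO, the 7th gene, was too low for the test. Both genes whose groups did not overlap, ALKBH8 and ALKBH5, were lower with DMOG, at 71.1% and 80.0% of the untreated mean. Over all tested loci, 11.4% were likewise lower in every treated library and 4.47% higher. Neither difference passed the test. The separation of both genes holds only for FPKM as given. With the libraries scaled to a common median, DMOG library 3 lay above untreated library 3 for each of them. The plot of FPKM by library shows all 7 genes.

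**Figure D1:**
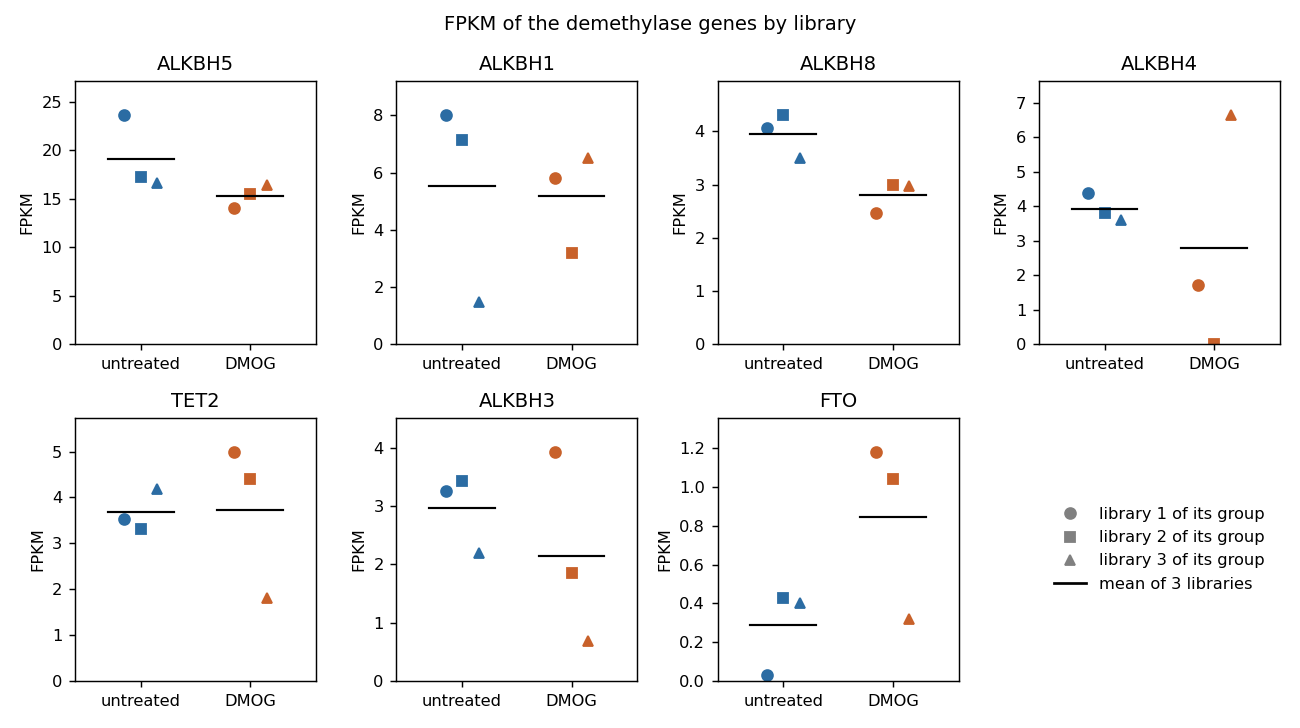
FPKM (vertical axis, linear from 0) of each of the 7 genes in 3 untreated (blue) and 3 DMOG (orange) libraries, with the mean of each group as a line. The groups are apart only for ALKBH5 and ALKBH8, in both of which every DMOG library lies lower, and ALKBH4 is listed at 0 in DMOG library 2.

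Before the genes are taken in turn, the libraries are compared. The median FPKM of the tested loci ran from 5.03 to 5.99 with DMOG and from 5.78 to 6.50 without it, and DMOG library 3 had the lowest value. That library also listed the most tested loci at 0, 4.15%, where the others listed 0.815% to 2.51%. Small RNA loci, recognised by name, held 28.9%, 38.6% and 42.4% of the summed FPKM in DMOG libraries 1, 2 and 3. In untreated libraries 1, 2 and 3 they held 33.3%, 28.3% and 31.6%. The part of this share in the medians was not tested. FPKM do not give the number of reads, so the depth behind each value is unknown. The lens label was borne out by the crystallins, as CRYAA ran from 599 to 962 FPKM over the 6 libraries. Of 23 lens marker loci, 20 averaged 1 FPKM or more. Globin genes (HBBA, HBA1, HBZ, HBE1 and HBM), which mark red cells, were listed at 0 in every library. Of the 8 loci on the red cell list, 6 were at 0, while ALAS2, the first enzyme of heme synthesis in red cells, ran from 8.12 to 12.9 FPKM and EPB42, a red cell membrane protein, from 5.62 to 8.24. In bulk RNA, fewer cells of a type and less RNA per cell cannot be told apart.

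In untreated cells ALKBH5 was the most abundant of the 7 transcripts, with a mean of 19.1 FPKM (SD 3.87, n = 3), a level above that of 86.2% of tested loci. ALKBH1 followed at 5.54 (SD 3.55), ALKBH8 at 3.95 (SD 0.411), ALKBH4 at 3.93 (SD 0.412), TET2 at 3.68 (SD 0.452) and ALKBH3 at 2.97 (SD 0.670). FTO was the lowest, at 0.287 (SD 0.223). ALKBH5 was 3.46 times the mean of ALKBH1, and its lowest untreated library (16.6) lay above the highest of ALKBH1 (8.0). Among the 5 genes from ALKBH1 to ALKBH3, neighbours in this order overlapped, so their order is only partly resolved. Every untreated value of ALKBH8 (lowest 3.5) and ALKBH4 (lowest 3.60) lay above the highest of ALKBH3 (3.44). The lowest ALKBH3 value (2.20) lay above the highest FTO value (0.430). With DMOG, ALKBH5 stayed first and ALKBH1 second by mean, and only the step from ALKBH5 (lowest 14.0) to ALKBH1 (highest 6.51) was free of overlap. ALKBH5 held 41.1% to 53.5% of the summed FPKM of the 7 genes with DMOG and 43.4% to 52.0% without it.

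For the comparison of conditions, log2(FPKM + 0.5) was fitted with limma over the 9816 loci that averaged 1 FPKM or more. The study's limits are a log2 fold change of 0.60 or more, up or down, together with a p under 0.05 before adjustment. Over all tested loci 767 (7.81%) passed these limits, 279 (2.84%) as higher and 488 (4.97%) as lower, and 19 (0.194%) had a Benjamini-Hochberg adjusted p under 0.05. Of the 6 demethylase genes tested, 0 passed the limits, 0 had an adjusted p under 0.05 and 0 an unadjusted p under 0.05. Over all tested loci 883 (9.0%) had such an unadjusted p. Beside a background of 7.81%, a count of 0 among 6 genes does not set them apart. Their adjusted p lay between 0.650 and 0.969. The median log2 fold change was -0.36 over the 6 genes and -0.13 over all tested loci, and 5 of the 6 genes had a negative value, as had 63.7% of all tested loci. Of the calls over all loci, 36.4% were higher with DMOG. After scaling of the libraries to a common median that share was 56.1% and the median of all loci -0.01. The scaling itself brings that median close to 0.

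**Figure D2:**
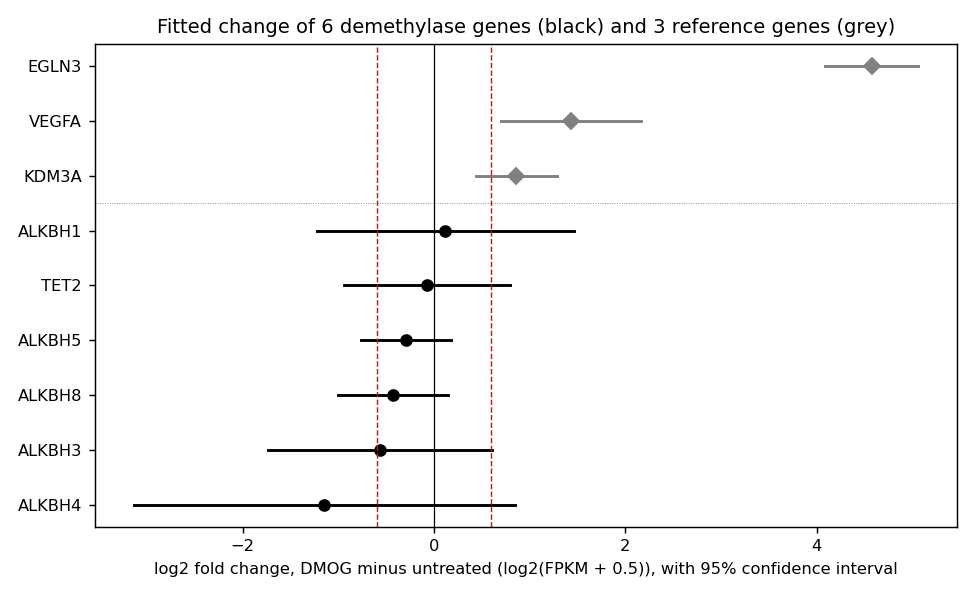
Log2 fold change (DMOG minus untreated, horizontal axis) with its 95% confidence interval for the 6 tested demethylase genes (black circles) and 3 genes known to respond to hypoxia-inducible factor (grey diamonds). Red dashed lines mark the study's fold change limit of 0.60, and the interval of every demethylase gene includes 0 while those of EGLN3, VEGFA and KDM3A do not. The reference genes were chosen with earlier results of these data known. The others of the 7 tested are not drawn, among them PDK1, whose interval includes 0 (-1.07 to 0.29).

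ALKBH5, an m6A eraser of the nucleus, had 14.0, 15.5 and 16.4 FPKM in libraries 1, 2 and 3 of the treated cells. The untreated libraries measured 23.6, 17.2 and 16.6. Every DMOG library was therefore below every untreated library, but DMOG library 3 and untreated library 3 lay close together. The log2 fold change was -0.30 (SE 0.20, 95% interval -0.77 to 0.17, limma adjusted p 0.702). The upper end of the interval lies below the study's limit of 0.60 for a rise. Without untreated library 1, the highest of the 6, the value was -0.14, and after median scaling of the libraries it was -0.17. With that scaling DMOG library 3 lay above untreated library 3, so the groups overlapped.

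ALKBH8, the tRNA enzyme, measured 2.47, 2.99 and 2.97 FPKM in treated cells, against 4.06, 4.30 and 3.5 in untreated cells. Its groups did not overlap, and its spread within groups was small, at an SD of 0.13 on the log2 scale, where 5.20% of tested loci had a smaller one. The log2 fold change was -0.43 (SE 0.25, 95% interval -1.0 to 0.15, adjusted p 0.650). It stayed negative in all 16 alternative settings, from -0.50 to -0.29, and was -0.31 with median scaling. After that scaling DMOG library 3 lay above untreated library 3, so the groups of ALKBH8 overlapped. With no filter the 95% interval lay wholly on the negative side, from -0.83 to -0.021 (limma unadjusted p 0.0427). The log2 fold change was -0.43 there too, short of the study's limit, and the adjusted p was not under 0.05. In every other setting the interval also held positive values, so this result depends on the filter. The fit with no filter takes in 3106 loci that were at 0 in every library. In that fit the interval of LDHA, a reference gene, ran from -1.84 to 3.95. In the main fit it ran from 0.32 to 1.78 around the same log2 fold change. How reliable the intervals of the fit with no filter are was not tested. On the unscaled FPKM, an exact permutation test gave a two-sided p of 0.1 for ALKBH8 and for ALKBH5. That is the smallest p that 3 libraries against 3 allow. Against the background of 11.4% of tested loci that were lower in every treated library than in any untreated one, 2 of 6 genes is too few to read as more than a description.

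FTO acts on m6A and on the related mark next to the mRNA cap. Its locus joins 5 annotated transcripts. It measured 1.18, 1.04 and 0.320 FPKM in treated cells, against 0.0300, 0.430 and 0.400 in untreated cells. DMOG libraries 1 and 2 were above every untreated library, while DMOG library 3 was below untreated libraries 2 and 3, so the groups overlap. The mean was 0.847 (SD 0.461) with DMOG and 0.287 (SD 0.223) without it, and both lie under the minimum of 1 FPKM for the test. In the fit with no filter, whose intervals carry the limit given for ALKBH8, the log2 fold change was 0.75 (SE 0.39, 95% interval -0.26 to 1.77, limma adjusted p 0.785). The exact permutation p was 0.3. At this level the size depends on the pseudocount: it was 1.38 with 0.1 FPKM and 0.50 with 1 FPKM.

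The erasers were also set beside the writers of the mark within each library, as values with no test. FTO made up 7.75%, 6.28% and 1.91% of the summed ALKBH5 and FTO transcripts in treated cells (libraries 1, 2 and 3), whereas untreated cells gave 0.127%, 2.44% and 2.35%. ALKBH5 was thus the main eraser transcript in all 6 libraries. The summed erasers were 1.19, 1.76 and 1.61 times the sum of METTL3 and METTL14 with DMOG and 1.96, 1.33 and 1.13 times without it. These ratios overlap between the conditions.

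TET2, the one TET gene with a row, joins 4 annotated transcripts. It measured 4.99, 4.41 and 1.80 FPKM in treated cells, against 3.54, 3.32 and 4.19 in untreated cells. DMOG libraries 1 and 2 were the highest of the 6 and DMOG library 3 the lowest. The means were nearly equal, at 3.73 (SD 1.70) and 3.68 (SD 0.452). The log2 fold change was -0.07 (SE 0.37, 95% interval -0.94 to 0.79, adjusted p 0.969), and it was 0.32 without DMOG library 3. The part of that library's lower median and higher share of zeros in the TET2 value was not tested. The interval is wide enough to hold a change past 0.60 in either direction.

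ALKBH3, which reverses alkylation damage in single-stranded DNA and RNA, measured 3.93, 1.85 and 0.680 FPKM in treated cells, against 3.26, 3.44 and 2.20 in untreated cells. The highest and the lowest of the 6 values were both DMOG libraries. The log2 fold change was -0.57 (SE 0.50, 95% interval -1.74 to 0.60, adjusted p 0.766). It was -0.08 without DMOG library 3 and -1.04 without DMOG library 1, so single libraries set its size.

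ALKBH1, which acts on tRNA, measured 5.82, 3.19 and 6.51 FPKM in treated cells, against 8.0, 7.15 and 1.47 in untreated cells. Untreated library 3 was the lowest of all 6, and the other untreated libraries were the highest. The mean of FPKM was lower with DMOG (5.17, SD 1.75) than without it (5.54, SD 3.55), while the log2 fold change was positive, at 0.12 (SE 0.58, 95% interval -1.23 to 1.46, adjusted p 0.969). Without untreated library 3 it was -0.56. No direction can be given for ALKBH1.

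ALKBH4, the family member with a protein substrate in human cells, had 1.72 and 6.63 FPKM in libraries 1 and 3 of the treated cells and was listed at 0 in DMOG library 2. The untreated libraries were close together, at 4.39, 3.79 and 3.60. The DMOG libraries thus lay on both sides of the untreated ones. Of 7210 loci averaging 3 FPKM or more, 49 (0.680%) were listed at 0 in DMOG library 2. That set also holds much higher loci, and among all tested loci the share at 0 in that library was 2.51%. The share at the level of ALKBH4 itself was not computed. The spread of ALKBH4 within groups was larger than that of 96.4% of tested loci, with an SD of 1.36 on the log2 scale. The log2 fold change was -1.15 (SE 0.85, 95% interval -3.14 to 0.84, adjusted p 0.731). Without DMOG library 3 it was -2.07, past the study's limits (limma unadjusted p 0.0158), and without DMOG library 2 it was -0.15. ALKBH4 had the largest absolute fold change of the 6 genes, so the loci most like it over the 6 libraries were looked up. By root mean square difference of centred log2(FPKM + 0.5), these were PSPH (0.27), SAP30 (0.30) and ENSGALG00000031518 (0.31). All 3 were also listed at 0 in DMOG library 2, which the choice largely fixes, since that value lies farthest from the mean of ALKBH4 (-2.57 on the centred log2 scale).

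**Figure D3:**
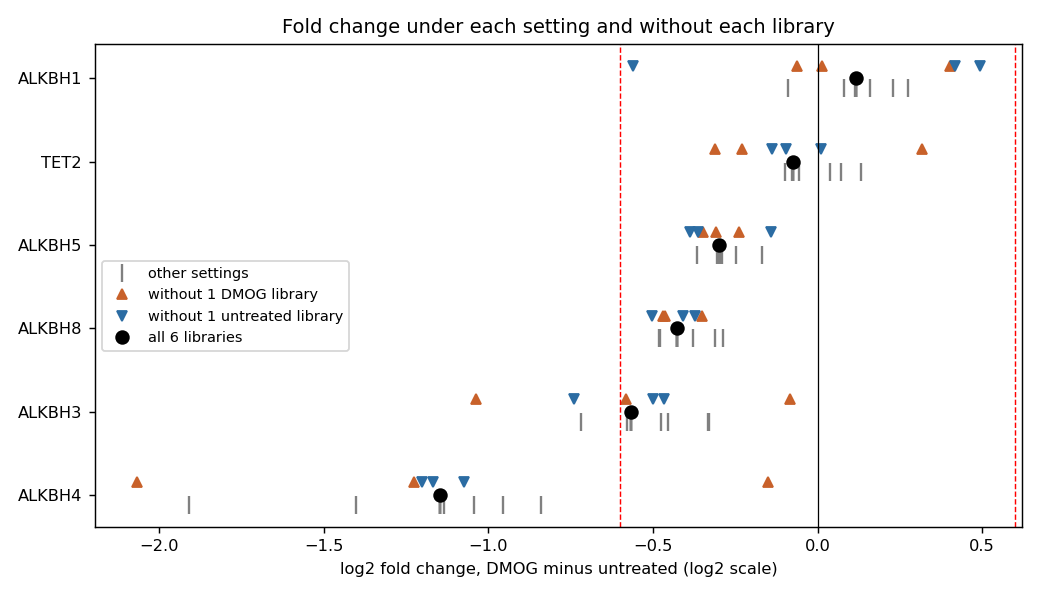
Log2 fold change (horizontal axis, DMOG minus untreated) of the 6 tested genes with all 6 libraries (black), without 1 DMOG library (orange), without 1 untreated library (blue) and under the other settings (grey bars). ALKBH3, ALKBH4, ALKBH5 and ALKBH8 stay below 0 throughout, and ALKBH1 and TET2 cross 0. With 1 library left out, ALKBH4 ranges from -2.07 to -0.15.

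The response to DMOG in the same libraries was read from genes that are established targets of hypoxia-inducible factor. Of 7 such loci tested, 6 passed the study's limits as higher and 0 as lower, beside 2.84% and 4.97% of all tested loci. These loci were chosen with earlier results of these data known, so the count is a description and not independent support. An adjusted p under 0.05 was reached by 2 of the 7. LDHA lost its call in 2 of 17 alternatives, with no filter and with quantile normalization. EGLN3, KDM3A, VEGFA, SLC2A1 and BNIP3L kept theirs in all 17. The locus that did not pass, PDK1, averaged 15.9 FPKM in treated and 20.0 in untreated cells. Its log2 fold change was -0.39 (limma adjusted p 0.732), and its groups overlapped. EGLN3, a prolyl hydroxylase and itself a 2-oxoglutarate dioxygenase, averaged 1.76 FPKM (SD 0.368) in untreated and 52.9 (SD 4.87) in treated cells, with a limma adjusted p of 4.39e-04. KDM3A, a histone demethylase of that enzyme class, measured 37.7, 29.7 and 30.0 FPKM in treated cells, against 16.3, 19.4 and 17.0 in untreated cells, a log2 fold change of 0.86 (95% interval 0.44 to 1.28, adjusted p 0.179). VEGFA, a growth factor for blood vessels, rose by 1.43 (95% interval 0.70 to 2.16, adjusted p 0.210). The ratio of KDM3A to ALKBH5 within a library, a comparison chosen after the values were known, was 2.69, 1.91 and 1.83 in treated cells, against 0.691, 1.13 and 1.03 in untreated cells. Every DMOG library was higher for KDM3A and lower for ALKBH5 than any untreated one, so these ratios had to separate and add no evidence. The intervals of KDM3A and ALKBH5 do not meet, but the difference between these genes was not tested.

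The 6 lists of genes that work with or against these enzymes held 47 tested loci. Of these, 1 was higher and 2 lower at the study's limits, together 6.38% beside 7.81% of all loci. None had an adjusted p under 0.05, and 4 had an unadjusted p under 0.05 in limma, as had 9.0% of all tested loci.

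Among 9 m6A writer genes, 1 passed as lower and 0 as higher, with a median log2 fold change of -0.22. This median was -0.37 without DMOG library 1 and -0.092 with median scaling. The gene that passed was CBLL1, the ubiquitin ligase of the writer complex, which measured 2.43, 4.97 and 4.16 FPKM in treated cells, against 8.23, 6.66 and 6.16 in untreated cells. The log2 value of the difference was -0.83 (SE 0.30, adjusted p 0.478), and 6 of 17 alternative settings ended the call, median scaling and the loss of DMOG library 1, untreated library 1 or untreated library 2 among them. METTL3 (log2 fold change -0.12) and METTL14 (-0.42), the pair at the core of the writer complex, did not pass.

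Among 9 m6A reader genes, 1 passed as lower and 0 as higher, with a median of -0.19, or -0.064 with median scaling. YTHDF2, the reader that speeds the decay of marked mRNA, measured 6.85, 7.17 and 6.62 FPKM in treated cells, against 12.4, 9.49 and 14.2 in untreated cells. Every DMOG library was below every untreated one. YTHDF2 fell by 0.74 on the log2 scale (95% interval -1.25 to -0.24, adjusted p 0.360), passing the study's limits but not the adjusted threshold, and it kept its call in all 17 alternatives. Its relatives YTHDF1 and YTHDF3 had log2 fold changes of -0.17 and -0.32 and did not pass.

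On the DNA side, 6 writers and readers of cytosine methylation gave 0 higher and 0 lower, with a median of 0.09. MBD3, a methyl-CpG binding domain protein of the NuRD complex, had the largest absolute value and measured 7.37, 11.7 and 6.45 FPKM in treated cells, against 5.01, 3.16 and 8.75 in untreated cells. Its groups overlapped, as untreated library 3 was the second highest of the 6. The log2 value of its difference was 0.61 (95% interval -0.29 to 1.51, adjusted p 0.678), and without that library it was 0.96 and passed the study's limits. Among 10 loci for the removal of oxidised cytosine and partners of TET proteins, 1 passed as higher and 0 as lower, with a median of 0.00. GADD45B, a stress-induced gene linked to DNA demethylation in mouse, measured 27.8, 34.4 and 29.8 FPKM in treated cells, against 10.1, 10.4 and 18.8 in untreated cells. It rose by 1.25 (95% interval 0.63 to 1.88, adjusted p 0.197) and passed in all 17 alternatives. Its relative GADD45A went the other way, at means of 20.9 FPKM in treated and 33.2 in untreated cells. The log2 fold change of GADD45A was -0.57 (limma adjusted p 0.759), its groups overlapped and it did not pass. Another relative, GADD45G, was too low for the test. TDG, the glycosylase that excises oxidised cytosine, had a log2 fold change of -0.47 and did not pass. LIG3, a ligase of base excision repair, had an unadjusted limma p of 0.0407 but a log2 fold change of only -0.49. Of the 10 loci in this list, 5 had a negative value and 5 a positive one. After GADD45B, the largest positive values were those of NEIL1 (1.17), SMUG1 (0.90) and CXXC5 (0.82), which did not pass. NEIL1 and SMUG1 were low, at means of 0.483 and 0.873 FPKM in untreated cells.

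The 9 tested loci for alkylation repair and ALKBH partners gave 0 higher and 0 lower, with a median of 0.00. ASCC2, a subunit of the complex that works with ALKBH3, had the largest absolute value by a narrow margin, -0.35 (adjusted p 0.825), which became 0.15 without DMOG library 3. The helicase subunit ASCC3 had 0.00 (95% interval -0.46 to 0.47). ALKBH2, a family member outside the 9 names, measured 1.83, 2.99 and 1.63 FPKM in treated cells, against 4.17, 2.77 and 1.51 in untreated cells, and its groups overlapped. The 4 tested loci for enzymes of 2-oxoglutarate and 2-hydroxyglutarate gave 0 higher and 0 lower. Their median was -0.34, which was -0.016 without DMOG library 3. D2HGDH shares its locus with ING5, so its value of -0.51, which enters that median, cannot be assigned to D2HGDH alone. IDH2, which makes 2-oxoglutarate in mitochondria, had -0.63 (adjusted p 0.771) and 0.049 without DMOG library 3. The plot of fold change by gene list shows these loci together.

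**Figure D4:**
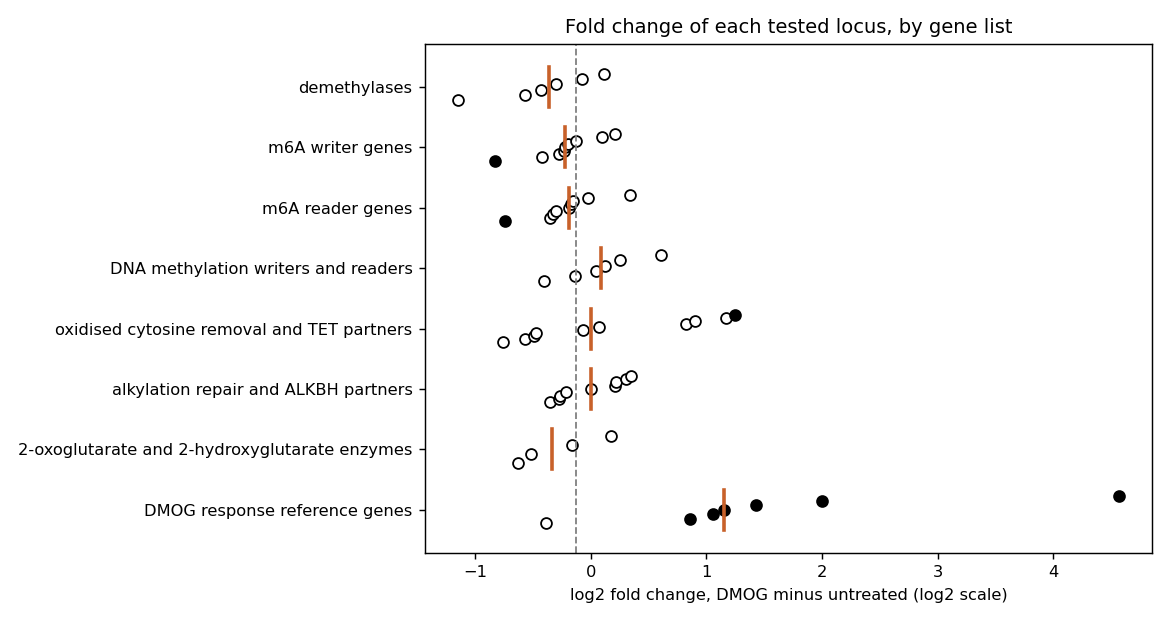
Log2 fold change (horizontal axis, DMOG minus untreated) of each tested locus by list, with filled circles for loci past the study's limits, orange bars for list medians and a grey dashed line for the median of all tested loci (-0.13). None of the 6 demethylase genes is filled, against 6 of 7 reference genes, which were chosen with earlier results of these data known.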

How the data were processed

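RNA-seq of 6 libraries of primary chick lens cells was examined. According to the methods, the authors took stranded total RNA libraries through Cutadapt for trimming, Bowtie2 and HISAT2 for mapping (build galGal6), StringTie and gffcompare for assembly, and edgeR. Versions are not given in the sources used here. The authors deposited FPKM rounded to 2 decimals, with 1 value per locus and library. Their columns of fold change and p-value hold the authors' comparison and were not used. The study's test on counts could not be repeated on FPKM.

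From the FPKM, log2(FPKM + 0.5) was fitted by treatment group in limma 3.58.1 under R 4.3.3, with a mean-variance trend, over 9816 loci averaging 1 FPKM or more, and p-values had Benjamini-Hochberg adjustment across all 9816. Fold changes are on that scale, which understates the change of low genes. The script was tested on simulated data. Values were summarised in Python 3.11.15 with pandas 2.3.3 and scipy 1.17.1. Ratios of low values between libraries piled up at no step (at most 3.87% of loci in one bin), so whole reads were not recovered. Samples were grouped by their titles.

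The members and lists were chosen with earlier results of these data known. Named genes are the 9 names, list genes past the study's limits, otherwise the list's largest absolute change, reference genes, markers, and the 3 loci nearest the member with the largest change. LIG3, TDG, NEIL1, SMUG1, CXXC5, ALKBH2, METTL3, METTL14, YTHDF1, YTHDF3, ASCC3, GADD45A and GADD45G were named outside this rule, after their values were seen. List names with no matching row, such as ALKBH6 and ALKBH7, were not analysed here. Some list loci join genes: DNMT1 with EIF3G, IGF2BP3 with FAM126A, D2HGDH with ING5, and OGT with genes that have no symbol. Some marker loci do too, such as PTPRC with NEK7. The FPKM of such a locus cannot be assigned to a single gene. One gene was left out of the related lists and their counts and is not reported here. Of the other marker lists, erythroid had 2 of 8 loci averaging 1 FPKM or more, mesenchymal 3 of 10, retinal and neural 2 of 8, pigmented 1 of 6 and macrophage 2 of 6. The alternatives were other pseudocounts, filters, scalings and moderation, array weights, a replicate block, and leaving out small RNA loci, loci that join genes, or each library.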

Additional observations from a re-analysis of the deposited data

How the results depend on the processing

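With 3 libraries a group and unknown depth, the 95% intervals of all 6 tested genes hold a decrease past 0.60, and those of TET2, ALKBH1, ALKBH3 and ALKBH4 also an increase past it, so changes of that size could have been missed. Under the alternatives 0 demethylase genes had an adjusted p under 0.05, and from 0 to 1 passed the study's limits with any single library omitted, the 1 being ALKBH4 without DMOG library 3. Of 98 recomputed values of the 6 genes, 8 changed sign, all in TET2 or ALKBH1. TET2 gave 0.037 with median scaling, 0.071 with quantile normalization and 0.13 with array weights, and from -0.31 to 0.32 with 1 library left out. ALKBH1 gave -0.091 with array weights and from -0.56 to 0.49 with 1 library left out. On the same terms ASCC2 ranged from -0.72 to 0.15, IDH2 from -0.99 to 0.049 and FTO, as a difference of means, from 0.49 to 1.08.

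Over all loci, 279 passed the study's limits as higher and 488 as lower. These became 183 and 231 with a minimum mean of 5 FPKM, and the lower ones 323 with median scaling and 319 with quantile normalization. With 1 library left out they ran from 213 to 395 and from 328 to 774, the 774 without DMOG library 1. The 19 loci with an adjusted p under 0.05 became 12 with no filter, 40 with median scaling, 34 with quantile normalization, 31 without small RNA loci and 38 with array weights, and from 6 to 21 with 1 library left out. The settings with another minimum, with no filter or without small RNA loci test another set of loci, so their counts have another base. The causes of the shifts were not tested. With a replicate block 5 had an adjusted p under 0.05, and 0 demethylase genes passed either threshold. The deviations of same-numbered libraries correlated at -0.11, -0.17 and -0.23, and those of other-numbered libraries at -0.0068 to 0.159. These values show no likeness between same-numbered libraries. With 3 libraries a group they cannot settle whether the numbers pair the samples. The block ended the call of CBLL1.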
